A study of Mus musculus with 33 samples.

Results

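Regulatory T cells (Tregs) of the spleen of untreated mice were compared with the CD4+Foxp3- T cells of the same organ by bulk RNA-Seq. The comparison used 6 of the 33 libraries of the study: the 3 whose titles name SP/naive Tregs and the 3 whose titles name SP/naive CD4+ T cells, with every gene of the count files taken in. The study examined Treg subsets in mice that accepted porcine neonatal islet cell clusters under short costimulation blockade, and the naive libraries are its steady-state reference. All 6 came from DEREG mice on a C57BL/6 background, whose transgene places the diphtheria toxin receptor and enhanced GFP (EGFP) under the Foxp3 promoter, and the labels give no transplantation and no treatment for either group. SP/naive Tregs were sorted as CD4+GFP+ cells and SP/naive CD4+ T cells as CD4+GFP- cells, so both groups carry the transgene and the gate reads the transgene, not the Foxp3 protein. The labels state neither age nor sex, and the study describes the naive mice used for spleen as male. A tolerant counterpart was available in 9 further libraries, which share none with the naive comparison: SP/CD127-/lo and SP/CD127hi Tregs (3 each) and CD4+Foxp3- T cells (3) from the spleen of DEREG recipients with tolerated grafts who had received CTLA4-Fc together with the anti-CD154 antibody MR1. The study describes each library as a pool of several mice, but the number of naive mice it gives is too small for separate pools, so it is unclear how mice were divided among libraries, and p-values measure the spread between libraries, which may be technical.

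Tregs are CD4+ T cells that restrain other immune cells, and the transcription factor Foxp3 fixes their identity. They depend on IL-2, which they hardly make themselves and which they capture with the high-affinity receptor formed by the α chain (Il2ra, CD25), the β chain (Il2rb) and the common γ chain (Il2rg). Much of the programme of Foxp3 is repressive: genes for IL-2, CD40 ligand and the phosphodiesterase Pde3b are known to be held down in Tregs, whereas CTLA4, the GARP receptor for latent TGF-β and TNF receptors such as OX40 and GITR are known to be raised.

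Each library held 2728119 to 3840011 read pairs on genes (median 3369440), which were 38.4% to 52.8% of its read pairs, and 3 counts corresponded to 0.781 to 1.10 CPM (counts per 1000000 read pairs on genes). EGFP, the reporter the cells were sorted on, had 37.2, 42.6 and 86.4 CPM in the 3 Treg libraries and 0 counts in the 3 CD4+ libraries, at least 53.4-fold higher when 3 counts per library are taken as the limit of detection. The reporter and Foxp3 therefore matched the labels in all 6 libraries. Cd4 was detected at 184 ± 61.9 CPM in Tregs and 308 ± 104 CPM in CD4+ T cells (SD, n = 3), and Cd3d, a chain of the T cell receptor complex, at 1456 ± 502 and 2566 ± 69.3 CPM. Replicate 2 of the CD4+ T cells stood apart, with a count on 20097 genes where the other 5 libraries had 12927 to 16699. Replicate 1 of the CD4+ T cells held 299 CPM of granulocyte, erythroid and platelet markers, mostly hemoglobin, against 0.265 to 4.17 CPM in the other 5 libraries. In bulk samples, fewer cells of a type and less RNA per cell cannot be told apart.

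Of 25347 genes tested, 67 (0.264%) differed between SP/naive Tregs and SP/naive CD4+ T cells at an adjusted p under 0.05 (the quasi-likelihood test of edgeR, adjusted over all genes by the Benjamini-Hochberg method, which gave every adjusted p here unless another test is named). Of these differentially expressed genes (DEGs), 40 (0.158% of the genes tested) were higher and 27 (0.107%) lower in Tregs. The increases were the larger ones: 39 of the 40 higher genes but 20 of the 27 lower genes had an absolute log2 fold change over 2, while the median of all genes tested was -0.09, or 0 with genes that had 0 counts in a group set at the bound that 3 counts per library give. At an unadjusted p under 0.05, 1701 genes (6.71%) differed, 882 higher (3.48%) and 819 lower (3.23%). The 2 groups of libraries did not overlap for 37 of the higher and 20 of the lower DEGs, against 1355 (5.35%) and 1192 (4.70%) of all genes tested. These shares of all genes tested are the background for every list below. With 3 libraries per group, separation of the libraries alone does not show a difference. Over 14 alternative settings, 16 of the 67 DEGs were called every time, 11 higher (Il2ra, Foxp3, EGFP, Penk, Itgae, Fgl2, Il2rb, Swap70, Serpina3g, Lrrc32 and Zcchc18) and 5 lower (Klrd1, Klrk1, Pde3b, Ly6c2 and Dapl1). Foxp3 and EGFP are fixed by the gate. With fewer libraries, 29 of the 67 calls were lost without replicate 2 of the CD4+ T cells, and 27 without replicate 3 of the Tregs.

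**Figure D1:**
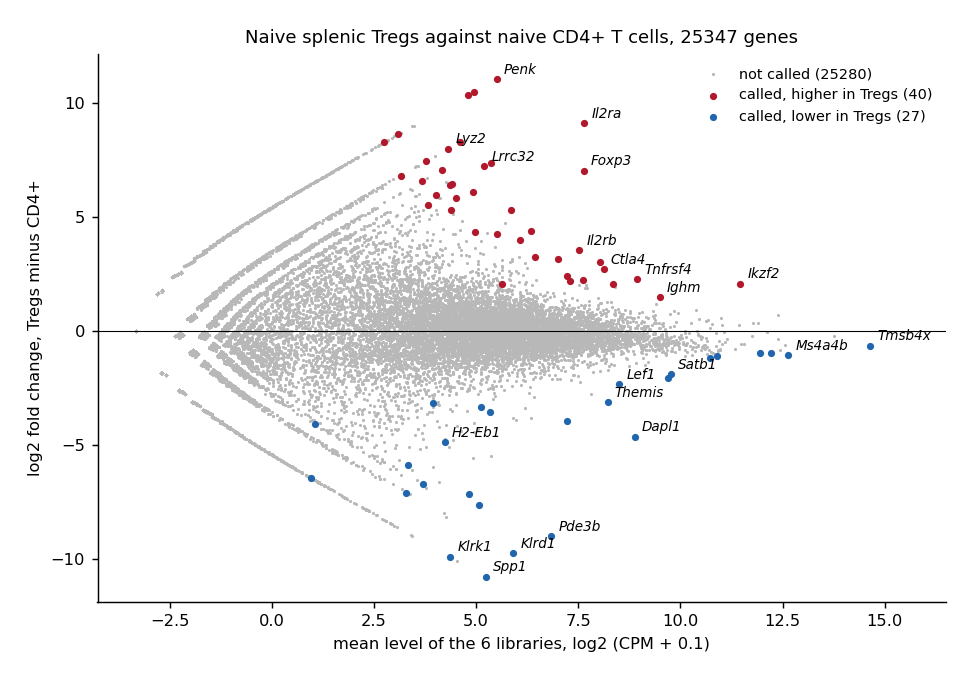
Log2 fold change of SP/naive Tregs against SP/naive CD4+ T cells (vertical axis) by mean level of the 6 libraries in log2(CPM + 0.1) (horizontal axis), 1 point per gene tested. Of the 67 called genes, 40 lie above and 27 below 0, and Il2ra and Foxp3 lie far above genes of the same level, while Tmsb4x is a small change at a very high level.

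Foxp3 and Il2ra, the genes that mark Tregs, parted the libraries most clearly. Il2ra (ENSMUSG00000026770, chromosome 2 from 11642807 to 11693193 on GRCm38) had 444, 285 and 466 CPM in Tregs and 1.31, 0.317 and 0.392 CPM in CD4+ T cells. The log2 fold change was 9.10 with a standard error of 0.76, and the adjusted p (4.55e-22) was the smallest of all genes tested. Foxp3 (ENSMUSG00000039521, chromosome X from 7573644 to 7595245) had 359, 468 and 353 CPM in Tregs and 8.20, 0.317 and 0.392 CPM in CD4+ T cells (log2 fold change 7.01, standard error 0.73, adjusted p = 9.08e-15). The lowest Treg library was far above the highest CD4+ library for both genes. Replicate 1 of the CD4+ T cells held the only Foxp3 and Il2ra levels there above 1 CPM, and without it 2 reads of each gene were left in CD4+ T cells, for ratios of 1105 (Foxp3, 95% counting interval 306 to 9129) and 1164 (Il2ra, 322 to 9616). Since the cells were gated on a reporter driven by the Foxp3 promoter, Foxp3 and EGFP check the labels and are not results.

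The Treg signature holds 30 genes known to be high in Tregs. All 30 log2 fold changes were positive, with a median of 3.04 against -0.09 over all genes tested. The test called 14 of the 30 higher and 0 lower, and 26 passed an unadjusted p under 0.05. Of all genes tested, 0.158% were called higher and 3.48% were higher at the unadjusted p. The likelihood ratio test of edgeR called 8 of the 30 and DESeq2 13. Foxp3, which the gate fixes, is among the genes called by each test. The list was chosen with earlier results of these data known, so that its count is a description.

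Among the signature genes outside the IL-2 receptor, Ikzf2, which encodes the transcription factor Helios, was the most abundant, with 5882, 3819 and 4019 CPM in Tregs and 1657, 470 and 1156 CPM in CD4+ T cells (log2 fold change 2.06, standard error 0.23, adjusted p = 3.29e-13). The groups did not overlap, but the CD4+ libraries were themselves high, and the likelihood ratio test did not call the gene (adjusted p = 0.10). Penk, the proenkephalin gene, had 115, 63.9 and 92.7 CPM in Tregs and 0 counts in all 3 CD4+ libraries, at least 87.3-fold higher (adjusted p = 2.14e-08). Itgae (CD103, the αE integrin chain that binds E-cadherin) had 59.7, 137 and 48.7 CPM in Tregs and 0, 0.950 and 0.392 CPM in CD4+ T cells (log2 fold change 7.37, standard error 1.17, adjusted p = 3.02e-06), and its log2 fold change was 6.77 without replicate 1 of the CD4+ T cells and 6.78 without replicate 2 of the Tregs. Without replicate 2 of the CD4+ T cells, 1 read of Itgae was left there (ratio 433, 95% counting interval 77.5 to 17110). Swap70, which acts in actin remodelling, had 34.9 to 47.6 CPM against 0, 1.27 and 0 CPM (log2 fold change 6.39, standard error 1.09, adjusted p = 2.4e-05). Without replicate 2 of the CD4+ T cells it was at least 37.7-fold higher, and without replicate 1 its log2 fold change was 5.79.

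Klrg1, a lectin-like receptor of effector Tregs, was uneven among the Tregs, at 4.68, 16.9 and 53.3 CPM against 0, 0.633 and 0 CPM (adjusted p = 0.00962), a ratio of summed counts of 115 over 2 reads in CD4+ T cells (95% counting interval 31.6 to 958). All 3 Treg libraries were above the CD4+ libraries, but the call was lost without replicate 3 of the Tregs (adjusted p = 0.131) and without replicate 1 or 3 of the CD4+ T cells (0.0921 and 0.0554). Without replicate 2 of the CD4+ T cells it was at least 23.1-fold higher, and without replicate 3 of the Tregs the ratio was 44.5. Izumo1r, the folate receptor 4 gene, had 390, 594 and 604 CPM against 144, 95.6 and 139 CPM (log2 fold change 2.07, adjusted p = 0.0222), a call lost without replicate 3 of the Tregs (adjusted p = 0.104) or replicate 2 of the CD4+ T cells (0.0790). Of the 16 signature genes that did not pass, those nearest to the threshold were Ikzf4, the gene of the Helios relative Eos (log2 fold change 3.06, adjusted p = 0.118, called by DESeq2), the receptor gene Gpr83 (3.69, adjusted p = 0.135), and Nrp1, a surface marker of thymus-derived Tregs (1.90, adjusted p = 0.145). The groups of libraries did not overlap for any of the 3, as for 5.35% of all genes tested in that direction.

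**Figure D2:**
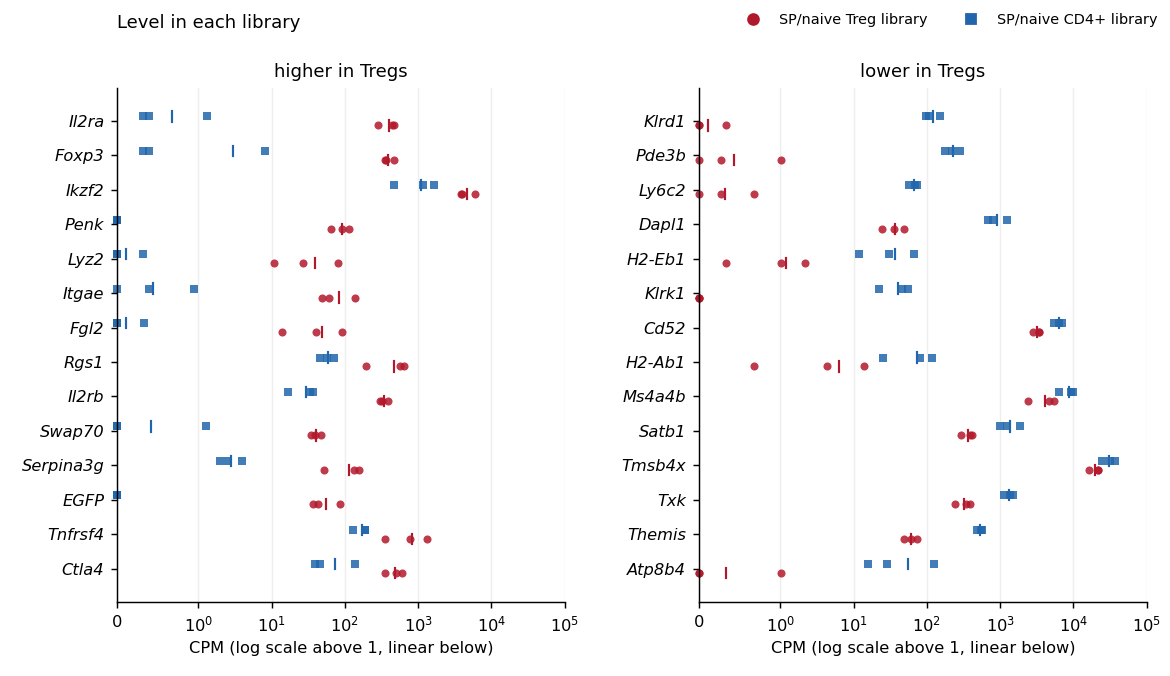
Level of called genes in each library, in CPM (horizontal axis, logarithmic above 1 and linear below), for 14 genes higher (left) and 14 genes lower in Tregs (right). Circles are the 3 SP/naive Treg and squares the 3 SP/naive CD4+ libraries, and vertical ticks are group means. The groups do not overlap for any of the genes shown, and several genes, such as Penk, EGFP and Klrk1, are at 0 in one group.

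In the IL-2 and common γ chain receptor pathway, the test called 3 of 22 genes higher, Il2ra, Il2rb and Cish, and 0 lower, while 5 were higher and 3 lower at an unadjusted p under 0.05. Of all genes tested, 0.158% were called higher and 0.107% lower, and 3.48% and 3.23% at the unadjusted p. Il2rb, the β chain that carries the signal of IL-2 and IL-15, had 306, 384 and 322 CPM in Tregs and 33.5, 37.1 and 16.9 CPM in CD4+ T cells (log2 fold change 3.53, standard error 0.58, adjusted p = 7.84e-06), with no overlap. The third chain behaved otherwise in level: Il2rg had 361 ± 97 CPM in Tregs and 690 ± 283 CPM in CD4+ T cells (SD, n = 3), and its log2 fold change of -0.94 did not pass the test (adjusted p = 0.562).

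Cish, a STAT5 target whose product dampens cytokine receptor signals, had 38.3, 27.1 and 69.2 CPM in Tregs and 0, 0 and 2.35 CPM in CD4+ T cells (log2 fold change 5.83, standard error 1.37, adjusted p = 0.0157). The call was lost without replicate 1 or 2 of the CD4+ T cells (adjusted p = 0.189 and 0.199) or replicate 3 of the Tregs (0.0947), and without replicate 3 of the CD4+ T cells the gene was at least 46.4-fold higher. The kinase gene Pim1 and Socs2, which are also STAT5 targets, had log2 fold changes of 2.98 and 3.03 without passing (adjusted p = 0.0712 and 0.167), although both the likelihood ratio test and DESeq2 called Pim1. The IL-7 receptor α chain Il7r (CD127) had 543 ± 108 CPM in Tregs and 1060 ± 163 CPM in CD4+ T cells (SD, n = 3), with no overlap and a log2 fold change of -0.96 that did not pass (adjusted p = 0.461). The genes of the signalling chain itself, Jak1, Jak3, Stat5a and Stat5b, had log2 fold changes of 0.36, 0.96, 0.83 and 0.51 and adjusted p values of 0.805 to 0.949.

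The promoters of these genes are shown for the letters that bind the factors named above, since STAT5, NF-κB, RUNX and forkhead factors are known partners in Treg gene control. RefSeq promoter windows on GRCm38.p6 reach from 250 bases before to 50 bases after a transcript start, and 47 of the 67 DEGs matched 77 of the 32851 windows. The core of STAT sites (TTCNNNGAA) was in a window of 5 of 26 matched higher DEGs (Cish, Fgl2, Foxp3, Serpina3g and Tnfrsf18) and 1 of 21 lower DEGs, against 9.55% of all genes with a window. The forkhead letters (GTAAACA) were in 4 higher DEGs and 1 lower DEG, against 4.05% of genes. Both strands were searched, and no test was run on these counts. In the 5 windows of higher genes below, capitals mark the STAT letters, except in Il2ra, where they mark the NF-κB letters (GGGA, any 4 bases and CC, in 22.9% of all genes).
Foxp3 (chrX:7580233-7580532, plus strand): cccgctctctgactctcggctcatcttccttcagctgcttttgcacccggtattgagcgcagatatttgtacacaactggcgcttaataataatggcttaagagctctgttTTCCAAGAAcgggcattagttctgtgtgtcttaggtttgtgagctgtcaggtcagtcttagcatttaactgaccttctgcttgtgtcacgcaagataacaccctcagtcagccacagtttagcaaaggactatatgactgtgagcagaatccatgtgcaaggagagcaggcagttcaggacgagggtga
Il2ra (chr2:11642542-11642841, plus strand): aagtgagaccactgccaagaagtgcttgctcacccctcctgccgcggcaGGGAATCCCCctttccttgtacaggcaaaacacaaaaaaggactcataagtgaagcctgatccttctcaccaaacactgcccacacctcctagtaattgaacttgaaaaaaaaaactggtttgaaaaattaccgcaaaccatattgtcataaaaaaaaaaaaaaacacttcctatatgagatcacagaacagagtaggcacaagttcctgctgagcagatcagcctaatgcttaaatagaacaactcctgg
Cish (chr9:107296409-107296708, plus strand): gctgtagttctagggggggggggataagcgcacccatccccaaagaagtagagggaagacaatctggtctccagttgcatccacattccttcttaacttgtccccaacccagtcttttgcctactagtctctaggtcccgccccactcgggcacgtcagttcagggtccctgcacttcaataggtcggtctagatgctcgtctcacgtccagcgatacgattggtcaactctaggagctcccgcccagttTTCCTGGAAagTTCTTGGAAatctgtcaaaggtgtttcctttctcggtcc
Tnfrsf18 (chr4:156026072-156026371, plus strand): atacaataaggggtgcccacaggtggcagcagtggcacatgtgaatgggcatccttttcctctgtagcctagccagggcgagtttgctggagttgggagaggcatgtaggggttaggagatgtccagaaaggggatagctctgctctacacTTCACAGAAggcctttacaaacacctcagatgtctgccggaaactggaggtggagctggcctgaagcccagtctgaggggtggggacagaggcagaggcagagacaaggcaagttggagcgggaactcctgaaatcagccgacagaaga
Serpina3g (chr12:104235897-104236196, plus strand): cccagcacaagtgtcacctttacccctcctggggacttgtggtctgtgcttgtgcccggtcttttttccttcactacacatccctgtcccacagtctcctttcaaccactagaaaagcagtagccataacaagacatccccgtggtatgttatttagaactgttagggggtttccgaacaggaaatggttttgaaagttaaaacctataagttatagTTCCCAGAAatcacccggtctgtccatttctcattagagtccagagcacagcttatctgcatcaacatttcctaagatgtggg
The Cish window holds 2 STAT matches close to each other, whose first bases are bases 1 and 12 of the transcript, and the other STAT windows hold 1 each. Foxp3 has a second RefSeq window, without the STAT letters.

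Among the TNF receptors and costimulatory molecules, 2 of 22 genes were called higher and 0 lower. Tnfrsf4 (OX40) had 781, 348 and 1327 CPM in Tregs and 190, 131 and 190 CPM in CD4+ T cells (log2 fold change 2.27, standard error 0.42, adjusted p = 0.000249). Tnfrsf18 (GITR) had 331, 138 and 507 CPM against 109, 6.97 and 93.3 CPM (log2 fold change 2.23, standard error 0.56, adjusted p = 0.0367). Both receptors were lowest in the same Treg library, replicate 2, which was still above every CD4+ library. Neither was called by the likelihood ratio test or by DESeq2. The Tnfrsf18 call was lost without replicate 2 of the CD4+ T cells (adjusted p = 0.494), replicate 1 of the Tregs (0.0677) or replicate 3 of the Tregs (0.479). Tnfrsf9 (4-1BB) had 108 ± 58.9 and 24.5 ± 14.5 CPM (SD, n = 3) and did not pass (log2 fold change 2.15, adjusted p = 0.449), and Icos, Cd27 and Cd28 had log2 fold changes of 0.40, -0.02 and -0.60 (adjusted p of 0.773 to 1).

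Ctla4, whose product removes CD80 and CD86 from antigen-presenting cells, was the single coinhibitory receptor of 12 that was called. It had 499, 349 and 599 CPM in Tregs and 39.1, 45.6 and 137 CPM in CD4+ T cells (log2 fold change 2.71, standard error 0.51, adjusted p = 0.000286), and without replicate 3 of the CD4+ T cells the log2 fold change was 3.51. The likelihood ratio test did not call it, whereas DESeq2 did. Tigit and Pdcd1 (PD-1) were higher in every Treg than in every CD4+ library, with log2 fold changes of 1.86 and 0.74 that did not pass (adjusted p = 0.748 and 1). Such separation was seen in 5.35% of all genes tested. Lag3 was low, at 2.71 ± 1.70 CPM in Tregs, where 3 counts corresponded to 0.781 to 1.10 CPM.

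Of 18 genes by which Tregs act on other cells, 3 were called higher (Lrrc32, Itgb8 and Fgl2) and 1 lower (Pde3b). Lrrc32, which encodes GARP, the surface receptor of latent TGF-β, had 65.8, 90.3 and 62.9 CPM in Tregs and 0.656, 0.633 and 0 CPM in CD4+ T cells (log2 fold change 7.23, standard error 1.46, adjusted p = 0.00149). Itgb8, the integrin chain that with αV releases TGF-β from this complex, had 397, 200 and 98.5 CPM against 37.4, 31.4 and 8.23 CPM (log2 fold change 3.17, standard error 0.76, adjusted p = 0.0197). The Itgb8 call was lost without replicate 1 of the Tregs (log2 fold change 2.54, adjusted p = 0.262) or replicate 3 of the CD4+ T cells (0.195). Tgfb1 itself had 11.9 ± 4.37 and 6.88 ± 4.27 CPM (SD, n = 3) and did not pass (adjusted p = 1).

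Fgl2, a fibrinogen-like protein that Tregs secrete, had 13.8, 91.0 and 40.2 CPM in Tregs and 0.328, 0 and 0 CPM in CD4+ T cells (adjusted p = 3.85e-06). The summed counts gave a ratio of 397 (95% counting interval 70.9 to 15710), and the CD4+ side of that ratio was 1 read. Without replicate 1 of the CD4+ T cells Fgl2 was at least 45.5-fold higher, and without replicate 2 of the Tregs the ratio was 241. Pde3b, which degrades cyclic AMP, is repressed by Foxp3 and was the gene called lower. It had 0.275, 1.02 and 0 CPM in Tregs and 223, 176 and 283 CPM in CD4+ T cells (log2 fold change -9.0, standard error 1.25, adjusted p = 3.03e-08), and the log2 fold change was -8.40 without replicate 3 of the Tregs. Without replicate 2 of the Tregs, 1 read of Pde3b was left there, a ratio of 1696 (95% counting interval 304 to 67040).

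The adenosine-forming enzymes Nt5e (CD73) and Entpd1 (CD39) had log2 fold changes of 1.90 and 2.57 and did not pass (adjusted p = 0.295 and 0.691). Their groups did not overlap, as for 5.35% of all genes tested in that direction. Cytokine and cytolytic genes of suppression were at low levels. Il10 was at 6.65 ± 7.28 CPM in Tregs and 0.211 ± 0.366 CPM in CD4+ T cells, and Gzmb at 7.48 ± 3.19 and 0.215 ± 0.186 CPM (SD, n = 3, adjusted p = 0.503 and 0.625). Areg, the gene of a tissue repair factor, was at 4.95 ± 5.11 CPM in Tregs with 0 counts in CD4+ T cells (adjusted p = 0.43, called by DESeq2), and Il12a had 0 counts in all 6 libraries.

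Of 34 transcription factors tied to Tregs, 2 were called higher (Foxp3, which the gate fixes, and Ikzf2) and 2 lower (Satb1 and Lef1), and the median log2 fold change of the list was 0.19. Satb1, a genome organizer that is repressed by Foxp3, had 413, 394 and 294 CPM in Tregs and 1002, 1870 and 1255 CPM in CD4+ T cells (log2 fold change -1.91, standard error 0.40, adjusted p = 0.00312). Lef1, which maintains the naive state of T cells together with Tcf7, had 121, 112 and 125 CPM against 539, 757 and 517 CPM (log2 fold change -2.34, standard error 0.57, adjusted p = 0.0286). Neither gene's groups overlapped, and the likelihood ratio test called neither. Satb1 was lost without replicate 2 of the CD4+ T cells (adjusted p = 0.0931) or replicate 3 of the Tregs (0.0947). Lef1 was lost without replicate 2 of the CD4+ T cells (adjusted p = 0.193) or without any of the Treg libraries (0.164 to 0.205). Tcf7 (log2 fold change -1.54), Id2 (-1.46) and Ikzf1 (-1.34) were lower in every Treg library than in every CD4+ library but did not pass (adjusted p = 0.271, 0.181 and 0.283). Gata3, Maf and Nfatc2 were higher in every Treg library, with log2 fold changes of 1.61, 0.92 and 2.31 and adjusted p of 0.609 to 0.694. Such separation was seen in 4.70% of all genes tested for lower and 5.35% for higher levels.

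The genes known to be low in Tregs had a median log2 fold change of -1.66, and 18 of the 22 were negative. The test called 4 lower and 0 higher: Pde3b, Dapl1, Satb1 and Lef1. Dapl1, which is linked to quiescence of naive T cells, had 36.1, 49.4 and 24.5 CPM in Tregs and 809, 1241 and 680 CPM in CD4+ T cells (log2 fold change -4.63, standard error 0.73, adjusted p = 2.01e-06). The highest Treg library was far below the lowest CD4+ library. Cd40lg, which gives help to B cells and dendritic cells and which MR1 binds, had 57.3 ± 8.27 CPM in Tregs and 389 ± 79.7 CPM in CD4+ T cells (SD, n = 3), with no overlap. Its log2 fold change of -2.76 lay just beyond the threshold (adjusted p = 0.0568), and both the likelihood ratio test and DESeq2 called it. Il2 was low in both groups, at 3.03 ± 2.67 and 17 ± 14.4 CPM, and did not pass (adjusted p = 0.805).

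The natural killer receptor genes Klrd1 and Klrk1 were called lower under every setting tried. Klrd1 (CD94) had 0, 0.338 and 0 CPM in Tregs, which is 1 read in all, and 98.8, 153 and 107 CPM in CD4+ T cells (adjusted p = 9.95e-10), a ratio of summed counts of 1273 (95% counting interval 228 to 50330). The Klrd1 ratio was 835 without replicate 1 and 795 without replicate 3 of the Tregs, and without replicate 2 the gene was at least 151-fold lower. Klrk1 (NKG2D) had 0 counts in the Tregs and 46.3, 22.2 and 54.5 CPM in CD4+ T cells, at least 47.3-fold lower (adjusted p = 0.000175). Klrb1c (NK1.1) had 0.429 ± 0.522 and 30.3 ± 17.6 CPM (SD, n = 3) and did not pass (adjusted p = 0.304), though DESeq2 called it. Ly6c2, a surface antigen of some naive and memory T cells, had 0.275, 0.677 and 0 CPM in Tregs and 73.2, 69.7 and 57.2 CPM in CD4+ T cells (adjusted p = 7.96e-08), a ratio of 237 (95% counting interval 80.5 to 1150) that was 511 without replicate 2 and 148 without replicate 3 of the Tregs. All 4 genes were apart in every library. Of the 8 markers of CD8 T and NK cells, which include Klrd1 and Klrb1c, Klra8 had 0 counts in all 6 libraries, and Ncr1 and Cd8a were at 0.317 ± 0.549 and 2.22 ± 3.84 CPM in the CD4+ libraries (SD, n = 3). Nkg7 (71.2, 88.0 and 47.4 CPM) and Cd8b1 (15.4, 22.2 and 20.4 CPM) were present there, and also in the Tregs, at 60.8, 39.9 and 89.4 CPM and 31.1, 17.9 and 11.1 CPM. The 8 CD8 and NK markers together had 64.9 to 105 CPM in Tregs, 174 to 290 CPM in CD4+ T cells and 1404 to 2593 CPM in CD45+CD4- cells of naive spleen, and their part in the result was not tested.

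Of 28 genes of T cell receptor signalling, 0 were called higher and 1 lower, with a median log2 fold change of -0.18. The lower one, Themis, a T cell adaptor first known from thymocyte selection, had 73.8, 61.2 and 48.2 CPM in Tregs and 489, 541 and 575 CPM in CD4+ T cells (log2 fold change -3.13, standard error 0.69, adjusted p = 0.00547). Txk, a kinase of the Tec family that was not on the list, had 389, 339 and 240 CPM against 1345, 1511 and 1137 CPM (log2 fold change -2.05, standard error 0.44, adjusted p = 0.00363). The groups overlapped for neither gene. Without replicate 3 of the Tregs, both calls were lost (adjusted p = 0.104 for Themis and 0.110 for Txk). Lck, Zap70, Lat and Ptprc had log2 fold changes of -0.25, 0.19, -0.33 and -0.06 and adjusted p of 0.81 to 1.

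The RUNX letters (TGTGGTT) were in a window of 9 of the 21 matched lower DEGs (Arhgap15, Ebf1, Klrk1, Ly6c2, Plac8, Spp1, Tmsb10, Tmsb4x and Txk) and of 3 of the 26 matched higher DEGs, against 6.09% of all genes with a window. Here too the DEGs had more windows per gene than all genes, so the shares are not like for like. RUNX proteins are partners of Foxp3, and the windows of Klrk1 and Txk are shown for that reason, while that of Dapl1 is shown for its forkhead letters. Capitals mark the forkhead letters in Dapl1, the RUNX and then the AP-1 letters (TGANTCA, in 8.97% of genes) in Klrk1, and the RUNX letters, read on the other strand, in Txk.
Dapl1 (chr2:59484403-59484702, plus strand): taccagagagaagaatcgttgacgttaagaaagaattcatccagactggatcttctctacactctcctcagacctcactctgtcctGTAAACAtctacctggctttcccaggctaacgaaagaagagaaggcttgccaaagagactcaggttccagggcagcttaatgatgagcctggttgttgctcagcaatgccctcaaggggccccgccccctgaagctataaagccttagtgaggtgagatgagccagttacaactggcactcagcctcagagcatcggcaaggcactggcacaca
Klrk1 (chr6:129623815-129624114, minus strand): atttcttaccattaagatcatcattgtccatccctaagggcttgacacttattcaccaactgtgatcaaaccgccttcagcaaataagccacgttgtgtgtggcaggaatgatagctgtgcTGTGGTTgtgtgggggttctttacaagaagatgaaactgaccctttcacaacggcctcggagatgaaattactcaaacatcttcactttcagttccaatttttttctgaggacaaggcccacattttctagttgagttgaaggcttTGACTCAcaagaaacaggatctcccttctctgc
Txk (chr5:72736553-72736852, minus strand): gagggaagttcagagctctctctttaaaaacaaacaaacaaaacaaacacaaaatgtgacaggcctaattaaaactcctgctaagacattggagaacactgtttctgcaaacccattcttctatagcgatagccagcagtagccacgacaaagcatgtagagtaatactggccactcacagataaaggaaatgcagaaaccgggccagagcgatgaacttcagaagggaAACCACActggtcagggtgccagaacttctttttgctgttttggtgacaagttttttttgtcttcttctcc
These letters are a description of the windows, and binding was not measured.

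Tmsb4x, Cd52 and Ms4a4b were called lower at high levels and with small changes. Tmsb4x, an actin-binding thymosin, had 21810, 16510 and 21490 CPM in Tregs and 24240, 37430 and 31760 CPM in CD4+ T cells (log2 fold change -0.64, standard error 0.14, adjusted p = 0.00345). Cd52, a surface glycoprotein of lymphocytes, had 3394, 2849 and 3390 CPM against 5409, 7005 and 6407 CPM (log2 fold change -0.97, standard error 0.20, adjusted p = 0.00161). Ms4a4b, a membrane protein of naive T cells, had 4590, 2373 and 5487 CPM against 10030, 6388 and 9381 CPM (log2 fold change -1.05, standard error 0.22, adjusted p = 0.00252). The groups did not overlap, but none of the 3 was called by the likelihood ratio test or DESeq2, and the Ms4a4b call was lost without replicate 2 of the Tregs (adjusted p = 0.143). B2m, the light chain of MHC class I, was at a like level (12826 ± 1929 and 15055 ± 2619 CPM; SD, n = 3) and did not pass (log2 fold change -0.23, adjusted p = 0.773). The ribosomal genes, of which Rps19 was called lower with overlapping groups, together took 49580 to 67210 CPM in Tregs and 53930 to 107500 CPM in CD4+ T cells, highest in replicate 2 of the latter.

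Of the 67 DEGs, 39 were on none of the 18 lists. Serpina3g, a serine protease inhibitor induced in activated lymphocytes, had 51.5, 133 and 155 CPM in Tregs and 1.97, 2.53 and 3.92 CPM in CD4+ T cells (log2 fold change 5.32, standard error 0.92, adjusted p = 3.73e-05). Rgs1, which blunts chemokine receptor signals, had 648, 193 and 557 CPM against 70.5, 57.6 and 45.8 CPM (log2 fold change 3.0, standard error 0.49, adjusted p = 7.27e-06). Both were higher in every Treg library. Il1rl1 (ST2), the receptor of the alarmin IL-33, had 23.4, 43.6 and 15.4 CPM in Tregs and 0, 1.58 and 0 CPM in CD4+ T cells (log2 fold change 5.54, adjusted p = 0.0147), and its call was lost without replicate 1 or 3 of the CD4+ T cells (adjusted p = 0.119 and 0.0733), while without replicate 2 it was at least 25.5-fold higher.

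Other genes higher in Tregs without overlap were Zcchc18, at 67.5, 90.7 and 27.3 CPM with 0 counts in CD4+ T cells (at least 59.6-fold, adjusted p = 0.00161), Coro2a, a coronin (log2 fold change 4.36, adjusted p = 0.00252), Fam129a (4.26, adjusted p = 0.00309) and the guanylate-binding protein gene Gbp3 (3.98, adjusted p = 0.0043). Axl, a receptor tyrosine kinase, had 42.7, 84.6 and 51.3 CPM in Tregs and 0.656, 0.317 and 1.57 CPM in CD4+ T cells (log2 fold change 6.09, adjusted p = 0.0157). Coro2a and Gbp3 were lost without replicate 2 of the CD4+ T cells (adjusted p = 0.0827 and 0.0838), Fam129a without replicate 3 (0.0794), Gbp3 also without replicate 3 (0.0830), and Axl without replicate 1 or 2 (0.106 and 0.123). Without replicate 1 of the CD4+ T cells Gbp3 kept 3 reads there (ratio 240, 95% counting interval 81.9 to 1164). Without replicate 3, Axl kept 3 reads (ratio 119, 40.6 to 580) and the log2 fold change of Coro2a was 5.41. The remaining higher genes in no list, apart from 3 with overlapping groups, were Capn3, Lclat1, P2ry10, Rilpl2, Larp1b, Ier5, F830016B08Rik, Gm30948 and Gm31718, with log2 fold changes from 2.20 (Ier5) to 6.43 (Gm31718) for those with over 3 reads in CD4+ T cells, and each lost its call without at least 1 library.

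Among lower genes in no list, Spp1, the gene of osteopontin, had 0 counts in the Tregs and 210, 14.9 and 0.392 CPM in CD4+ T cells, at least 86.6-fold lower (adjusted p = 0.00962). Replicate 3 of the CD4+ T cells held 1 read, and without replicate 1 the bound was 8.82-fold and the call was lost (adjusted p = 0.286), as it was without any of the Treg libraries (0.0863 to 0.130). Atp8b4 had 0, 0 and 1.01 CPM against 123, 15.8 and 28.6 CPM (log2 fold change -7.13, adjusted p = 0.00812), a call lost without replicate 1 of the CD4+ T cells (log2 fold change -5.82, adjusted p = 0.108) or replicate 1 or 2 of the Tregs (0.122 and 0.121). Without replicate 3 of the Tregs, Atp8b4 was at least 60.8-fold lower. Arhgap15, an inactivator of the GTPase Rac, had 1550, 1100 and 936 CPM against 2491, 2917 and 2380 CPM (log2 fold change -1.12, adjusted p = 0.0351). Its call was lost without replicate 2 or 3 of the CD4+ T cells (adjusted p = 0.203 and 0.0536) or replicate 2 or 3 of the Tregs (0.236 and 0.415). Gm48942 (log2 fold change -3.97, adjusted p = 0.0243) and Tmsb10, a relative of Tmsb4x (-1.19, adjusted p = 0.0424), were lower without overlap, and were lost when any of the 6 libraries (Gm48942) or any of 4 of them (Tmsb10) was left out.

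Lists without any call were the immediate early genes (23 tested), effector cytokines (13), cell cycle genes (22) and type I interferon stimulated genes (18), by the quasi-likelihood test, the likelihood ratio test and DESeq2 alike. The quasi-likelihood test called 0.264% of all genes tested. Lists of this size would rarely hold a call at that share, and its absence does not show equal levels. At an unadjusted p under 0.05, 1 immediate early gene (Nfkbia), 3 cell cycle genes (Ube2c, Tyms and Tk1) and 1 interferon gene (Mx1) were higher and 1 cytokine (Il21) was lower. Of all genes tested, 3.48% were higher and 3.23% lower at that threshold. Mki67, a marker of proliferating cells, had 38.8 ± 21 CPM in Tregs and 14.6 ± 13 CPM in CD4+ T cells (SD, n = 3, adjusted p = 0.792). In homing and adhesion, Itgae and Itgb8 were called among 26 genes. Ccr8, a chemokine receptor of tissue Tregs, had 13.9 ± 14.7 CPM in Tregs and 0 counts in CD4+ T cells, with overlap at 0 (adjusted p = 0.0578), and was called by the likelihood ratio test and DESeq2, while Ccr7 and S1pr1, which guide recirculation, were lower in every Treg library without passing (log2 fold change -1.95 and -1.21, adjusted p = 0.43 and 0.6). Separation in the lower direction was seen in 4.70% of all genes tested.

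**Figure D3:**
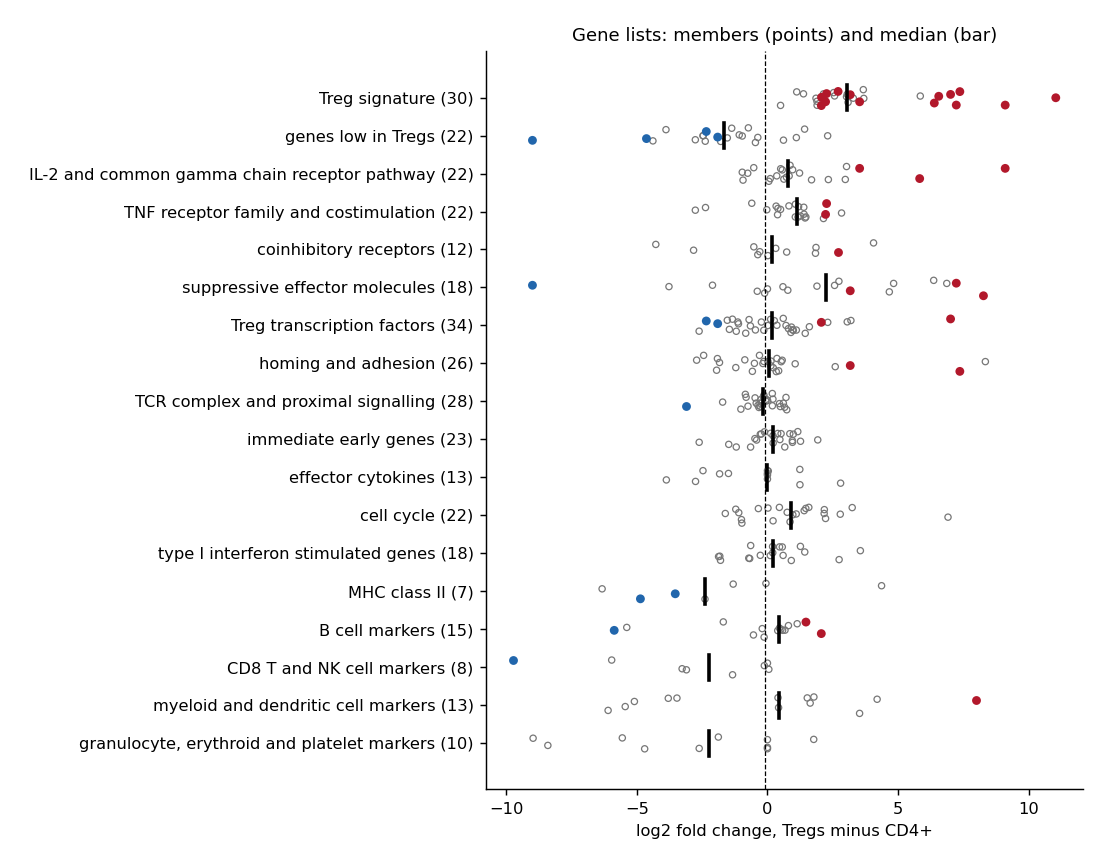
Log2 fold change, SP/naive Tregs minus SP/naive CD4+ T cells, of the genes of the 18 lists (the number tested in parentheses). Filled points are called (red higher, blue lower), open points are not, thick bars are list medians, and the dashed line is the median of all genes tested (-0.09). The Treg signature lies wholly above 0, with a median of 3.04, while the interferon and cytokine lists lie around 0 without any filled point. Of all genes tested, 0.264% were called.

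Genes of other cell types were called in both directions. The immunoglobulin heavy chain genes Ighm and Ighd were higher and the light chain gene Iglc3 lower in Tregs. Ighm, the constant region of IgM, had 778, 1158 and 1255 CPM in Tregs and 382, 344 and 423 CPM in CD4+ T cells (log2 fold change 1.47, standard error 0.29, adjusted p = 0.000634; not called by the likelihood ratio test). Ighd had 67.7, 75.5 and 95.7 CPM against 48.2, 0.950 and 7.84 CPM (log2 fold change 2.06, adjusted p = 0.0128), and this call was lost without replicate 2 or 3 of the CD4+ T cells (adjusted p = 0.169 and 0.0538) or replicate 3 of the Tregs (0.0639), while without replicate 1 of the CD4+ T cells the log2 fold change was 4.19. Iglc3 had 3.58, 4.74 and 1.01 CPM against 9.19, 64.9 and 8.23 CPM (log2 fold change -3.15, adjusted p = 0.00962), a call lost without replicate 2 of the CD4+ T cells (log2 fold change -1.49, adjusted p = 0.538) or replicate 3 of the Tregs (0.155). Reads of the λ light chain genes can be shared among near-identical copies, as can those of Ly6c2, Serpina3g and Ms4a4b and their neighbours, so their levels are uncertain. The 15 B cell markers together took 948 to 1637 CPM in Tregs, 420 to 607 CPM in CD4+ T cells and 17410 to 18990 CPM in CD45+CD4- cells. Ighm made up most of that sum in the Tregs, and 2 to 7 of the 15 markers were at 0 there. Without Ighm, the other 14 took 119 to 343 CPM in Tregs and 51.2 to 247 CPM in CD4+ T cells, which overlap. Of the pair that forms the B cell receptor's signalling unit, Cd79a had 0 counts in the 3 Treg libraries and 2.95, 2.22 and 0 CPM in CD4+ T cells, and Cd79b had 30.01, 0 and 48.0 CPM against 44.3, 0.317 and 0 CPM. Igkc, the κ light chain, had 32.5, 18.3 and 76.8 CPM in Tregs and 59.1, 14.6 and 19.2 CPM in CD4+ T cells. Cr2 had 21.5, 8.46 and 2.27 CPM against 19.4, 1.27 and 26.2 CPM, and Cd22 had 17.3, 5.75 and 9.34 CPM against 0.328, 17.7 and 3.53 CPM. The groups overlapped for Cd79b, Igkc, Cr2 and Cd22, and none of the 4 passed (adjusted p of 0.805 to 0.931). Their part in the result was not tested.

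Of 7 MHC class II genes, 2 were called lower in Tregs and 0 higher. H2-Eb1 had 2.20, 0.338 and 1.01 CPM in Tregs and 66.9, 11.7 and 30.2 CPM in CD4+ T cells (log2 fold change -4.86, standard error 0.86, adjusted p = 6.85e-05). H2-Ab1 had 14, 0.677 and 4.29 CPM against 117, 25.0 and 80.7 CPM (log2 fold change -3.53, standard error 0.73, adjusted p = 0.00199; not called by the likelihood ratio test or DESeq2). Both were lower in every Treg library, and without replicate 1 of the Tregs the log2 fold changes were -5.61 and -4.84, while without replicate 1 of the CD4+ T cells that of H2-Eb1 was -4.09. H2-Aa (log2 fold change -2.39, adjusted p = 0.0845), Ciita (0 counts in Tregs, adjusted p = 0.069) and Cd74 (-1.31, adjusted p = 0.15) did not pass, and H2-DMb1 was higher in every Treg library (adjusted p = 0.425) at 3.20 ± 1.95 against 0.109 ± 0.189 CPM (SD, n = 3). The 7 class II genes took 138 to 228 CPM in Tregs, 272 to 718 CPM in CD4+ T cells and 5682 to 8166 CPM in CD45+CD4- cells. Lyz2, the lysozyme of macrophages, had 81.5, 26.4 and 10.9 CPM in Tregs and 0, 0.317 and 0 CPM in CD4+ T cells (adjusted p = 2.56e-07), a ratio of 346 (95% counting interval 61.8 to 13710), and it was the one called gene of 13 myeloid and dendritic markers, which took 143 to 302 CPM in Tregs, 97.6 to 180 CPM in CD4+ T cells and 403 to 795 CPM in CD45+CD4- cells. Without replicate 1 of the Tregs the ratio was 153, and without replicate 2 of the CD4+ T cells Lyz2 was at least 36.7-fold higher. The 13 myeloid and dendritic markers did not move together. Of their log2 fold changes, 8 were positive and 5 negative, and 2 were higher and 3 lower at an unadjusted p under 0.05. The part of such cells in these results was not tested.

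In 10 DEGs the 2 groups of libraries overlapped, and for each of them except Ebf1 the call was lost without at least 1 library. Of the 7 lower ones, Ebf1, Blnk, Fcrla, Plac8, Mef2c and Rnase6 were highest in replicate 2 of the CD4+ T cells, and Rps19 as well. Ebf1, a transcription factor of B cells, had 13.1, 45.6 and 0 CPM in CD4+ T cells against 0.275, 0.677 and 0 CPM in Tregs. Blnk, a B cell adaptor, had 0.656, 75.7 and 0 CPM against 0, 0.677 and 0 CPM. Without replicate 2 of the CD4+ T cells, Ebf1 (adjusted p = 0.000213) and Rnase6 (0.0242) were still called, whereas Blnk, Fcrla, Plac8, Mef2c and Rps19 were not (adjusted p of 0.715 to 1). Rnase6 was lost without replicate 3 of the Tregs (adjusted p = 0.104), and Fcrla, Plac8, Mef2c and Rps19 were also lost without at least 1 Treg library. The 3 higher ones, Iglv1, Iglv2 and Spin2c, lost their calls without replicate 3 of the Tregs, which held 53.0 CPM of Iglv1 and 39.7 CPM of Iglv2 where the other Treg libraries had 0. Without it, the log2 fold changes were -1.89 for Iglv1 and 0 for Iglv2, and the adjusted p of Spin2c was 0.188. Iglv2 and Spin2c were also lost without any of the CD4+ libraries, and Iglv1 without replicate 1 of them.

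**Figure D4:**
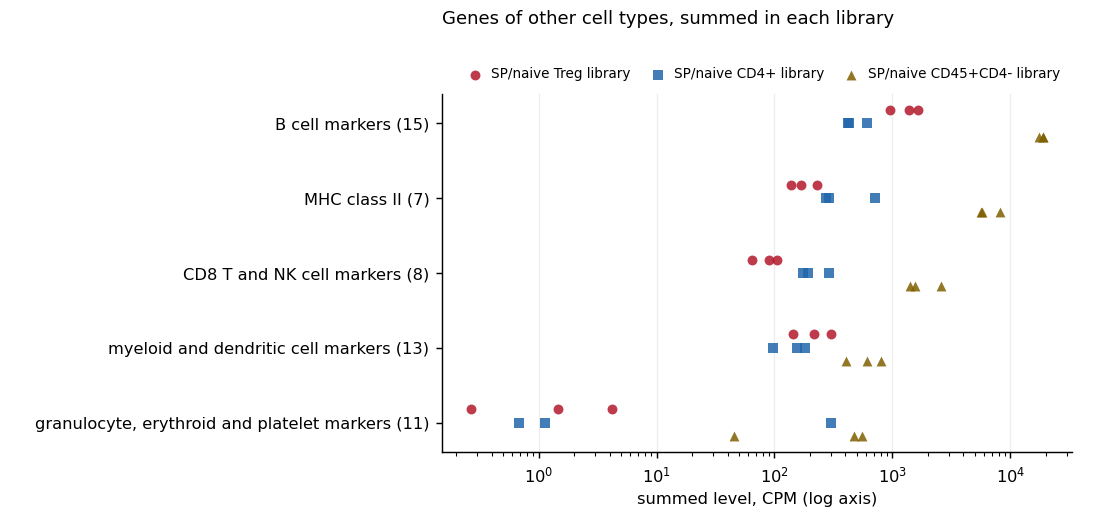
Summed level of marker genes of other cell types in each library, in CPM on a logarithmic axis, with the number of genes in parentheses. Circles are the SP/naive Treg, squares the SP/naive CD4+ and triangles the SP/naive CD45+CD4- libraries. The B cell marker sum, which is mostly Ighm, is higher and the sums of MHC class II and CD8 and NK markers are lower in all 3 Treg libraries than in the CD4+ libraries, and 1 CD4+ library holds 299 CPM of the last list.

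The naive DEGs were then followed into tolerant mice, whose 9 libraries share none with the naive comparison. There, splenic Tregs (the mean of SP/CD127-/lo and SP/CD127hi) differed from SP/tolerant CD4+ T cells in 184 genes (0.726% of those tested), 68 higher (0.268%) and 116 lower (0.458%). Of the 67 naive DEGs, 61 (91%) had the same sign in tolerant mice, and 34 were called the same way, Foxp3 and EGFP among both, which the gate on the reporter fixes. The sign was the same for 39 of the 40 higher DEGs, of which 18 were called, and for 22 of the 27 lower DEGs, of which 16 were called. Over all genes tested, the share with the same sign was 49.1%, where a log2 fold change of 0 in only 1 comparison counted as unlike. That share is therefore not the rate of agreement among genes with a direction. The median log2 fold change of the higher DEGs was 5.68 in naive and 2.62 in tolerant mice, and that of the lower DEGs -3.97 and -2.66. With genes at 0 in a group set at their bound, the medians were 5.32 and 2.44 for the higher and -3.53 and -2.66 for the lower DEGs. The naive values had served to select these genes, and the tolerant values had not.

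Ctla4 (log2 fold change 3.01), Lrrc32 (a ratio of 320 over 2 reads in CD4+ T cells) and Klrg1 (at least 134-fold) were called higher in tolerant Tregs as well, with adjusted p values from 4.18e-06 to 0.000162. The gate genes Foxp3 (log2 fold change 7.44) and EGFP (at least 128-fold) again matched the labels. Pde3b (log2 fold change -6.79), Klrd1 (-7.79), Dapl1 (-3.77) and Klrk1 (a ratio of 477 over 2 reads in Tregs) were called lower (adjusted p from 2.52e-13 to 7.70e-08). Cish, Il1rl1, Tnfrsf18 and Izumo1r kept their sign and were not called in tolerant mice (log2 fold change 1.91, 2.81, 1.47 and 1.21, adjusted p of 0.166 to 0.682). Of the 6 DEGs with the opposite sign, Tmsb4x was called the other way (log2 fold change 0.64 in tolerant mice, adjusted p = 0.000204), and Cd52, Mef2c, Iglv2, Rps19 and Tmsb10 were not called there.

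The difference between the naive and the tolerant comparison was itself tested and passed for 25 genes (0.0986% of those tested), 6 with a higher and 19 with a lower value in naive mice. This count was not stable: it was 1 (Il2ra) with the compared libraries only, and 0 with the stricter filter (edgeR, 712 at an unadjusted p under 0.05) or with the 24 spleen and graft libraries (1285), while DESeq2 called 50. Il2ra was among them: its log2 fold change was 9.10 in naive and 4.50 in tolerant mice, a difference of 4.61 (adjusted p = 7.23e-05). The Treg levels were 398 ± 98.7 CPM in naive (SD, n = 3) and 447.5 ± 105 CPM in tolerant Tregs (SD, n = 6), while the CD4+ T cells had 0.674 ± 0.554 CPM in naive and 19.6 ± 3.77 CPM in tolerant mice (SD, n = 3). The 6 tolerant Treg libraries are SP/CD127-/lo and SP/CD127hi sorts that may share mice, so they need not be independent. Penk also passed (adjusted p = 0.0389). It was at least 87.3-fold higher in naive Tregs, with 0 counts in naive CD4+ T cells, and had a log2 fold change of 4.01 in tolerant mice, with 11.3 CPM in tolerant CD4+ T cells. Ikzf2 differed the other way (2.06 and 3.28, difference -1.22, adjusted p = 0.0489), with 1094 CPM in naive and 632 CPM in tolerant CD4+ T cells. For Foxp3, the difference was -0.43 and was not called (adjusted p = 1).

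**Figure D5:**
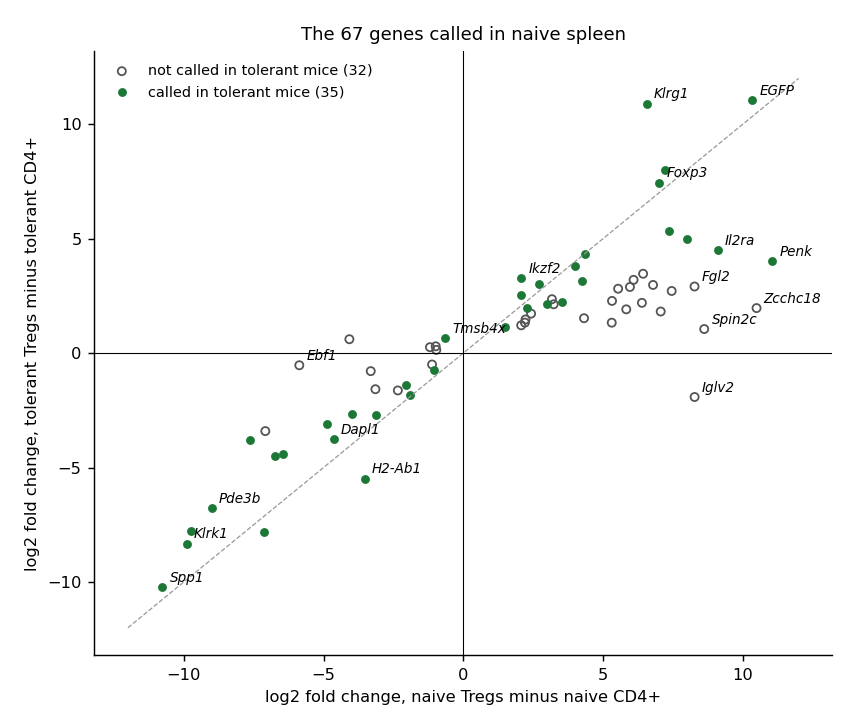
Log2 fold change of the 67 naive DEGs in naive mice (horizontal axis) and in tolerant mice (vertical axis), both as Tregs minus CD4+ T cells. Filled points are called in tolerant mice, open points are not, and the dashed diagonal marks equal values. Of the 67 genes, 61 lie in the lower left or upper right, Il2ra and Penk lie below the diagonal, and Tmsb4x is the called gene in the upper left.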

How the data were processed

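Libraries of sorted splenic T cells were made with the SMART-Seq v4 and Nextera XT kits, which keep no strand, so that reads of overlapping genes on opposite strands cannot be told apart. According to the methods and the submitters' processing notes, the authors used FastQC for quality, Trim Galore for trimming and STAR for alignment to mm10 plus EGFP. Versions are not given in the sources used here. The deposited values are unnormalized read pair counts per gene over both strands, in the layout of STAR's gene counts, although the methods name HTSeq. The 4 opening totals of pairs that fell on no gene were dropped. Symbols and positions were taken from GENCODE vM21 on GRCm38.

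Counts were analysed with edgeR 4.0.16 in R 4.3.3. A gene was tested if any of the 33 libraries reached 1 CPM (25347 genes), TMM factors were computed, and a negative binomial model with 1 mean for each of the 11 subsets was fitted with the quasi-likelihood test and Benjamini-Hochberg adjustment over all genes tested. Groups came from the sample titles. The 3 tests were SP/naive Tregs against SP/naive CD4+ T cells, the same in tolerant mice, and the difference of both. CPM are counts per 1000000 pairs on genes, with TMM-scaled totals for single genes and plain totals for summed levels. The standard error is the log2 fold change divided by the root of the F statistic. Folds against a group at 0 use 3 counts per library. Counting intervals cover counting error only, since reads carried no molecular identifiers.

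Alternatives were edgeR's likelihood ratio test, DESeq2 1.42.0, RLE normalization, no filter, a stricter filter (10 or more counts in 3 or more libraries), fits restricted to the 24 spleen and graft libraries or to the compared libraries, a block for the replicate number, and omission of each compared library. The scripts were tested on simulated data. The genes named are Foxp3, EGFP, Il2ra, the genes of 18 lists, up to 20 DEGs per direction by size and by adjusted p without overlap of the groups, DEGs with overlap, and genes of the tested difference. Txk, Ly6c2 and other DEGs on no list enter by that rule, and the DEGs it did not reach are named for completeness. The comparison and the lists were chosen with earlier results of these data known. Promoters were read with Python 3.11.15 from RefSeq windows. The ComBat-Seq step of the study was not applied here, and gene set tests were not run.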

Additional observations from a re-analysis of the deposited data

Results flagged for a closer look

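The difference between the naive and the tolerant comparison of Tregs with CD4+ T cells passed the test for 25 genes (the quasi-likelihood test of edgeR, Benjamini-Hochberg adjusted p under 0.05), and each value here is the naive minus the tolerant log2 fold change. It was positive for Il2ra (4.61), Penk (7.03), Iglv2 (10.2), Ly86 (6.36), Gm37637 (13.6) and Gm16178 (13.6). Of these, Iglv2 rested on 1 naive Treg library, Penk and Iglv2 were at 0 in naive CD4+ T cells, and Gm37637 and Gm16178 were at 0 there and in tolerant Tregs. The hemoglobin genes were negative, with Hbb-bt (-18.4), Hbb-bs (-17.1), Hba-a1 (-16.3) and Hba-a2 (-14.1). Among the compared libraries, granulocyte, erythroid and platelet markers, the hemoglobin genes included, were highest in replicate 1 of the naive CD4+ T cells (299 CPM) and in replicate 3 of the SP/CD127-/lo and SP/CD127hi Tregs (525 and 918.5 CPM), and took 0 to 4.54 CPM in the other 12. Emp1 (-14.7), Shcbp1 (-10.6), Wfdc17 (-10.5) and Gzma (-10.1) were at or near 0 in tolerant CD4+ T cells, as were the 4 hemoglobin genes, and Hbb-bt, Hba-a1 and Emp1 were at 0 in naive Tregs. Where a group is at 0, the size of these fitted differences is set by the fit and is no estimate or bound. Small differences at high level were negative for Tmsb4x (-1.29), Cd52 (-1.11), AW112010 (-1.16), S100a10 (-1.72), B2m (-0.831), the ribosomal genes Rps15a (-1.96), Rpl39 (-1.90) and Rps27 (-1.51), and the mitochondrial genes mt-Cytb (-1.28) and mt-Nd1 (-1.09). Ikzf2 also differed (-1.22). A fit restricted to the compared libraries called the difference for 1 gene, Il2ra.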

How the results depend on the processing

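The 67 DEGs of the naive comparison became 185 with DESeq2, of which 49 were shared, and 35 with the stricter filter, of which 31 were shared. With 1 compared library left out there were 45 (without replicate 3 of the Tregs) to 72 (without replicate 3 of the CD4+ T cells), and 58 without replicate 2 of the CD4+ T cells. The 40 higher DEGs became 134 with DESeq2 and 22 with the stricter filter, with 27 to 41 over the libraries left out. The 27 lower DEGs became 51 with DESeq2, 42 without a filter, 13 with the stricter filter and 46 with the compared libraries only, with 18 to 37 over the libraries left out. With the replicate block there were 97 DEGs, 52 higher and 45 lower, of which 64 were shared. Deviations from the group means of libraries with the same number correlated with r of 0.0373, 0.134 and 0.0688 over 3967 genes, so that equal numbers do not establish pairs. The likelihood ratio test called 62 genes, of which 40 were shared, and RLE 74, of which all 67 were shared.

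The 184 DEGs of the tolerant comparison became 315 with DESeq2, 59 with the stricter filter and 366 with the compared libraries only, and 101 to 149 with 1 library left out. With the replicate block there were 191. The 25 genes of the difference became 10 with the likelihood ratio test, 50 with DESeq2 (9 shared), 1 with the compared libraries only, and 0 with the stricter filter (edgeR, 712 at an unadjusted p under 0.05) and with the 24 spleen and graft libraries (1285), while leaving out 1 library gave 15 to 38 and the replicate block 37. The direction of Fcrla was lost without replicate 2 of the CD4+ T cells (log2 fold change 0), and Iglv1 (-1.89) and Iglv2 (0) lost theirs without replicate 3 of the Tregs, where leaving out other libraries gave values as far as -7.10, 8.70 and 8.85, fitted against groups at 0 counts. The causes were not tested. Genes under about 1 CPM in a library rest on 3 counts or fewer, and a p that misses the threshold does not show that levels were equal.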
